A study of Mus musculus with 9 samples.

Results

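The genes described here encode proteins that the liver releases into blood plasma, among them albumin and the other carriers, the clotting factors and their inhibitors, complement proteins and acute-phase proteins. The set was a fixed list of 43 gene names, and 42 of them matched a gene among the 56748 in the deposited tables. The name C5 had no match. The mouse gene for complement C5 is named Hc and was read with the other complement genes.

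RNA-Seq was performed on Hepa1-6, a mouse hepatoma cell line, in 3 groups of 3 libraries. One group received 37 µg/mL lefamulin and another 37 µg/mL tiamulin, both for 2 days. The sample labels call the control untreated, whereas the methods of the study call it a vehicle control. Lefamulin, used in people, and tiamulin, a veterinary drug, are both pleuromutilin antibiotics, which share a core and differ in the side chain attached to it. Equal mass was given per volume of medium. All cells were of the same line, and nothing in the labels says that the libraries of a group came from separate cultures, so p values measure the spread between libraries, which may be technical.

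Hepatocytes make most plasma proteins, and they switch this program on as they mature. The genes are driven by liver transcription factors such as HNF4A, CEBPA and the FOXA proteins. Some of them, the acute-phase genes, also follow cytokines of the interleukin-6 family, which signal through gp130, JAK kinases and STAT3. Alpha-fetoprotein is the main carrier of fetal plasma, falls after birth when albumin takes its place, and often returns in hepatocellular carcinoma.

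Total counts on genes lay between 15568887 and 18008105 per library. Between 0.277% and 0.394% of them fell on the 42 genes. The library tiamulin 2 stood apart: counts in pairs with it differed by 18.1 and 20.6 per degree of freedom (chi-square), against 2.88 to 7.57 in the other pairs of a group. Its deviations from the group mean rose with the GC content of the genes (Spearman's rho 0.694 over 10313 genes), and those of tiamulin 1 and tiamulin 3 fell with it (-0.533 and -0.576). The same measure was 0.493 in control 1, -0.492 in control 2 and between -0.143 and 0.184 in the other libraries. The deviations of a group of 3 sum to 0, so these values are not independent. Calls on the genes of the set that changed without a library are given with their value without it.

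Hepa1-6 cells kept a part of this program. Of the 42 genes, 14 had a mean FPKM (fragments scaled by gene length and library size) of at least 1 in controls, and the other 28 lay below. For comparison, 10017 of 21970 protein-coding genes (45.6%) reached this level. Mean control FPKM was at least 100 for 5 genes, between 10 and 100 for 4, between 1 and 10 for 5, between 0.1 and 1 for 7, and below 0.1 for 21. The count of 14 moved to 17 with a limit of 0.5 FPKM and to 13 with a limit of 2 FPKM.

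The kept genes were unevenly spread over the roles. They comprised 6 of 9 transport and carrier proteins, 2 of 3 matched complement proteins, 2 of 6 anticoagulant and fibrinolysis genes, 2 of 9 fetuins, inter-alpha-trypsin inhibitor chains and antitrypsins, 1 of 3 fibrinogen chains, and 1 of 9 clotting and contact factors. None of the 3 genes listed as acute-phase proteins (Orm1, Saa1 and Saa2) was among them, while C3, Fgb, Hpx and Cp, also known as acute-phase genes, are counted under other roles. The plot of control levels shows how steeply the set falls off.

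**Figure D1:**
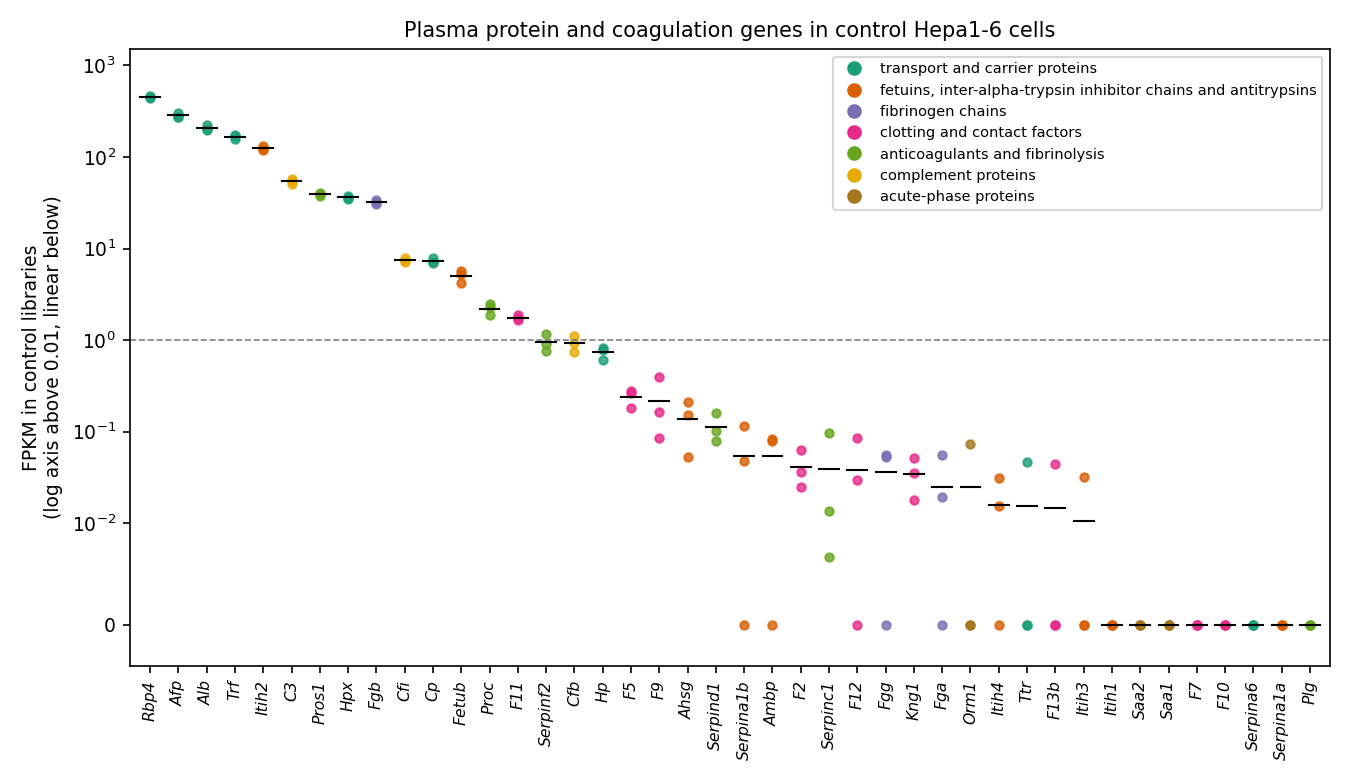
FPKM of the 42 genes in the 3 control libraries, as 1 point per library, with a bar at the mean and colours for the roles (log axis above 0.01, linear below it). The levels run from 450 FPKM for Rbp4 to 0 for 8 genes, and 14 genes have a mean on or above the dashed line at 1 FPKM.

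The genes of 2 loci are given here with their promoters, 1 where neighbours had like levels and 1 where they differed widely. Alb and Afp lie side by side on chromosome 5, 14.134 kb apart in the deposited positions, and both were among the 5 highest genes of the set. Fgg, Fga and Fgb, which encode the 3 chains of fibrinogen, the clot-forming protein, lie within 42.14 kb on chromosome 3. Fgb was read at 30.6, 32.6 and 33.5 FPKM in controls. Fga had 0, 1 and 3 counts there and Fgg 2, 0 and 2. At most 3 counts of Fga or Fgg were found in any of the 9 libraries, against 1478 to 2300 counts of Fgb. The beta chain was thus the only fibrinogen chain above 1 FPKM.

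**Figure D2:**
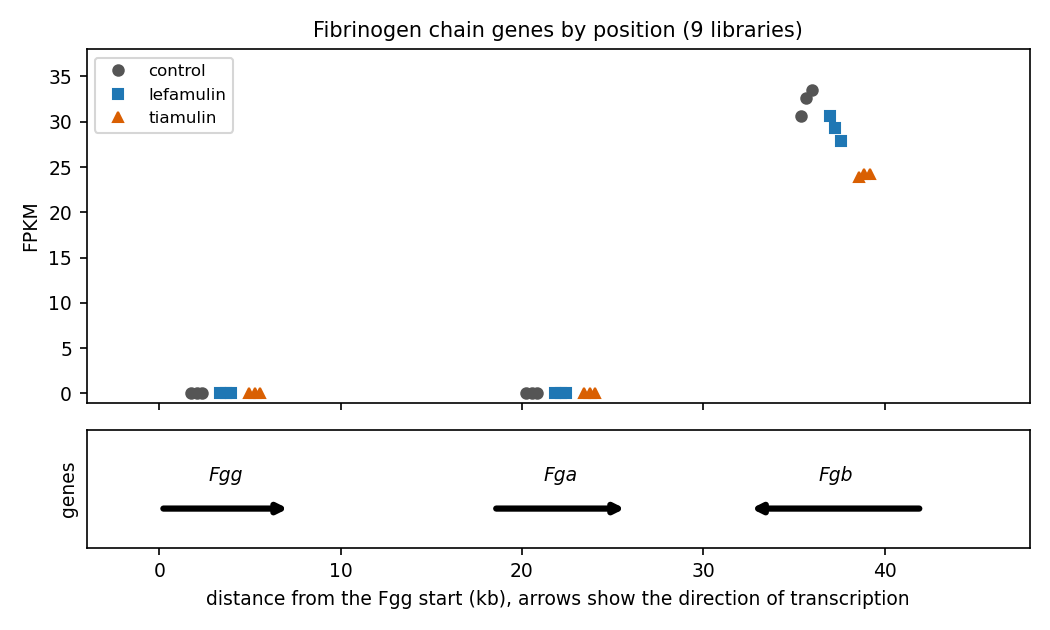
FPKM of the fibrinogen chain genes in each of the 9 libraries (upper panel) above the deposited extent of each gene (lower panel), by distance from the Fgg start in kb. Points of Fgg and Fga lie at 0 on this scale in all groups, and Fgb is lowest in the tiamulin libraries, at 24 to 24.3 FPKM.

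The promoters of these 5 genes are printed from 250 bases before to 50 bases after the start of the gene (RefSeq, GRCm38.p6, each read 5′ to 3′ on the strand of the gene). Capitals mark TTGCNNAA or its reverse complement TTNNGCAA, where N is any base, a loose form of the C/EBP motif bound by CEBPA. They lie at chr5:90460620-90460919 (Alb, plus strand), chr5:90490464-90490763 (Afp, plus strand), chr3:83007474-83007773 (Fgg, plus strand), chr3:83025903-83026202 (Fga, plus strand) and chr3:83049814-83050113 (Fgb, minus strand).
Alb: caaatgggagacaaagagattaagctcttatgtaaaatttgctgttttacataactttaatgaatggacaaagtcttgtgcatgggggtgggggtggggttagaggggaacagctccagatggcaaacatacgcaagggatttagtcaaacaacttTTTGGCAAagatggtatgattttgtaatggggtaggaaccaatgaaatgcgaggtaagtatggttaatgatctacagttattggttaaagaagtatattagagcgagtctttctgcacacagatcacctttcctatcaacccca
Afp: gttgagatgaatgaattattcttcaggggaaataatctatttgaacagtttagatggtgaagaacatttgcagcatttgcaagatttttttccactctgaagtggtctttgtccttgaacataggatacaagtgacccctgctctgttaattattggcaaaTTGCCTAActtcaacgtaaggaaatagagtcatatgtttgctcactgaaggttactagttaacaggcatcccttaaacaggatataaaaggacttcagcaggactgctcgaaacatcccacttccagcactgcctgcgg
Fgb: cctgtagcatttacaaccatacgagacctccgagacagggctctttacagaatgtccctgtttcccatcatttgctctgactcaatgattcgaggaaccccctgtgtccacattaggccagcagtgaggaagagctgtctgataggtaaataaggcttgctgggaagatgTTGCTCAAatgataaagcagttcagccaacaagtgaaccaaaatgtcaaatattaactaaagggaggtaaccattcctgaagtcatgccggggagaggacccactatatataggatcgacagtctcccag
Fga: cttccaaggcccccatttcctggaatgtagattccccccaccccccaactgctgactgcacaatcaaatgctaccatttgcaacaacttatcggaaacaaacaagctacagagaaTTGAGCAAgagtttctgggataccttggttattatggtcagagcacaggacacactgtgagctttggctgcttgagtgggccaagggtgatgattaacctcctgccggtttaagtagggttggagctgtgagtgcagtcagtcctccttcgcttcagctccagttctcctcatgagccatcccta
Fgg: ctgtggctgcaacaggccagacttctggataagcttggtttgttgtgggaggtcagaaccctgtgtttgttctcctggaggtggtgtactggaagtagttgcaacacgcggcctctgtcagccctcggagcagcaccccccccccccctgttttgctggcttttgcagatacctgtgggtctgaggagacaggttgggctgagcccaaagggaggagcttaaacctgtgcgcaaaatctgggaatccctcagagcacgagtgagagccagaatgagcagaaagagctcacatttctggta

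The letters were found once each in Alb, from base 94 to 87 before the start, in Afp, from base 89 to 82, in Fga, from base 135 to 128, and in Fgb, from base 80 to 73. They were not in the window of Fgg. A promoter was given for 32 of the 42 genes, and 17 of these (53.1%) held the letters on either strand, against 3547 of all 32851 promoters of that length (10.8%). The share was 9 of 11 among kept genes (Afp, Alb, C3, Cp, F11, Fgb, Hpx, Itih2 and Rbp4) and 8 of 21 among the others, such as F9, Fga, Saa1 and Serpina1a. The motif was chosen with the levels of these genes known. A match is a run of letters and says nothing of binding in these cells.

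Carrier proteins gave the highest levels. Rbp4, which carries retinol, had 435, 451 and 465 FPKM in controls 1, 2 and 3 and was number 46 among protein-coding genes. Afp had 276, 275 and 302 FPKM, Alb 200, 195 and 226 FPKM, and the iron carrier Trf 172, 157 and 171 FPKM. The 3 control values of each of these genes lay apart from those of the next, so their order did not depend on the library. Ttr, the partner of retinol-binding protein in plasma, had 0, 0 and 1 counts in the same libraries and at most 2 in any of the 9. Serpina6, which carries corticosteroids, was at 0 counts in all 9.

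Among the protease inhibitors, Itih2, a heavy chain of the inter-alpha-trypsin inhibitor, stood at 120, 122 and 131 FPKM in controls. Itih1, Itih3 and Itih4, which encode further heavy chains, had at most 2, 6 and 2 counts in any library. Ambp, which encodes the light chain, had at most 4. Fetub, a fetuin, was kept at 5.24, 4.19 and 5.74 FPKM, and its relative Ahsg had 8, 2 and 6 counts. Antitrypsin was near 0: Serpina1a had no count in any library and Serpina1b at most 5. Near-identical copies of both exist, and reads that fit several copies may not have been counted.

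Most of the clotting cascade was at the limit of detection. F7, which starts clotting through the tissue factor route, and F10 had no count in 9 libraries, which allows up to 3 counts in a library. F2 (prothrombin) had at most 7 counts in a library, F9 at most 19, F12 at most 5, F13b at most 2 and Kng1 (kininogen) at most 6. F11, a factor of the contact route, was the only one above 1 FPKM, at 1.64, 1.73 and 1.88 in controls. F5, the cofactor of factor Xa, had 36, 23 and 35 counts.

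The anticoagulant and fibrinolysis genes were kept in part. Pros1 (protein S) had 37.2, 40.6 and 39.6 FPKM in controls and Proc (protein C, which it assists) 2.46, 1.87 and 2.29 FPKM. Serpinf2, which blocks plasmin, was just below the limit, at 0.77, 0.90 and 1.17 FPKM. Serpinc1 (antithrombin) had 1, 2 and 15 counts, Serpind1 (heparin cofactor II) 3, 6 and 4, and Plg (plasminogen) none in any library. Serpinc1 and Serpind1 overlap Zbtb37 and Pi4ka on the opposite strand, which had 4634 and 11589 counts over the 9 libraries against 60 and 23. Whether strand was used in counting is not given in the sources used here, so the reads of these 2 genes may belong to their neighbours.

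Complement and heme-binding proteins completed the kept set. C3, on which all complement routes meet, had 54.8, 50.2 and 57.2 FPKM in controls. Cfi, the protease that cleaves C3b and C4b, had 7.33, 7.18 and 7.95. Hpx, the heme carrier hemopexin, had 36, 35 and 37.4 FPKM, and Cp, the copper protein ceruloplasmin, 6.92, 7.11 and 7.94. Cfb (factor B) and Hp (haptoglobin, which binds free hemoglobin) lay below 1 FPKM on average, with 54, 45 and 38 counts and with 22, 17 and 24. The acute-phase genes Orm1 and Saa2 had at most 2 and 1 counts in any library, and Saa1 none.

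The 2 genes just inside the limit of 1 FPKM were Proc and F11, with means of 2.21 and 1.75 FPKM, and those just outside were Serpinf2 and Cfb, with 0.945 and 0.923.

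These levels were set against markers of hepatocytes and other cells. Of 16 hepatocyte markers, 8 had at least 1 FPKM in controls, among them Krt18 (763 FPKM), Krt8 (304 FPKM) and the transcription factor Hnf4a (75.2 FPKM). Apoc3 was at 0 in all 9 libraries and Cps1, Pck1, Cyp2e1 and Ttr had at most 2 counts. Of all protein-coding genes 45.6% reached 1 FPKM, so the count of 8 of 16 does not by itself bear on the label of a hepatoma line. Of 6 bile duct markers 4 reached 1 FPKM, among them Spp1 (307 FPKM) and Sox9 (28.7 FPKM). Of 8 stellate cell and fibroblast markers 1 did (Dcn, 261 FPKM), of 10 blood cell markers 1 (Cd68, 6.61 FPKM), and of 7 endothelial markers none.

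The effect of the drugs was then tested in one edgeR quasi-likelihood fit of the 9 libraries, in which 14510 genes had enough counts. Adjusted p values (Benjamini-Hochberg) cover all of these genes, a gene was called at an adjusted p below 0.05, and a called gene with an absolute log2(fold change) above 1 is a DEG. Of the 42 genes, 18 were tested. The other 24 were too low: 6 had no count, 8 had at most 3 counts in any library, and 10 had up to 19. These 18 include every gene with at least 1 FPKM, and they cannot stand for the untested ones. In bulk RNA, fewer cells that express a gene and less RNA per cell cannot be told apart.

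Lefamulin lowered 6 of the 18 genes and raised 1, and tiamulin lowered 10 and raised none (edgeR). At an unadjusted p below 0.05 tiamulin raised 1 (F5), and DESeq2 called none higher. Among all 14510 tested genes, 6% were called lower and 7.09% higher under lefamulin, and 7.34% lower and 9.08% higher under tiamulin. C3, Cfi, Hp, Itih2, Hpx and Alb were lower under both drugs. Without tiamulin 2 the lowered genes numbered 11 under lefamulin and 10 under tiamulin. Of all 14886 genes tested there, 1885 and 1685 were lower. Without control 3, lefamulin 2 or lefamulin 3 they numbered 3 under lefamulin, and with offsets for GC content and length 11. Over all tested genes, 439 of 14839, 425 of 14835, 492 of 14858 and 1925 of 14242 were lower in these settings. The fit above gave 871 of 14510. Under lefamulin the number of calls on the set thus moved with that on all genes. Afp, Fgb, Cp and Pros1 were called lower only under tiamulin, and Trf was higher under lefamulin. With the GC and length offsets, Afp (adjusted p = 0.0207), Fgb (0.00553), Cp (0.0109) and Pros1 (0.000228) were called lower under lefamulin too. A fit of lefamulin and control alone also called Afp (0.0426), Cp (0.0186) and Pros1 (0.0129) lower. Genes called in neither comparison numbered 7 (Rbp4, Fetub, Proc, F11, Serpinf2, Cfb and F5). DEGs were 2 of 18 under lefamulin (Cfi and Hp, 1.51% of all tested genes) and 3 of 18 under tiamulin (C3, Cfi and Hp, 1.78%). Hp entered the test through its controls, where it was high, so its place among the DEGs does not stand apart from the count filter. Without Hp, Cfi remained under lefamulin, and C3 and Cfi under tiamulin.

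The median log2(fold change) of the 18 genes was -0.19 under lefamulin and -0.40 under tiamulin. Over all tested genes it was -0.0018 and 0.0034. Both drugs were compared with the same 3 controls. The plot of changes gives each gene with its interval.

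**Figure D3:**
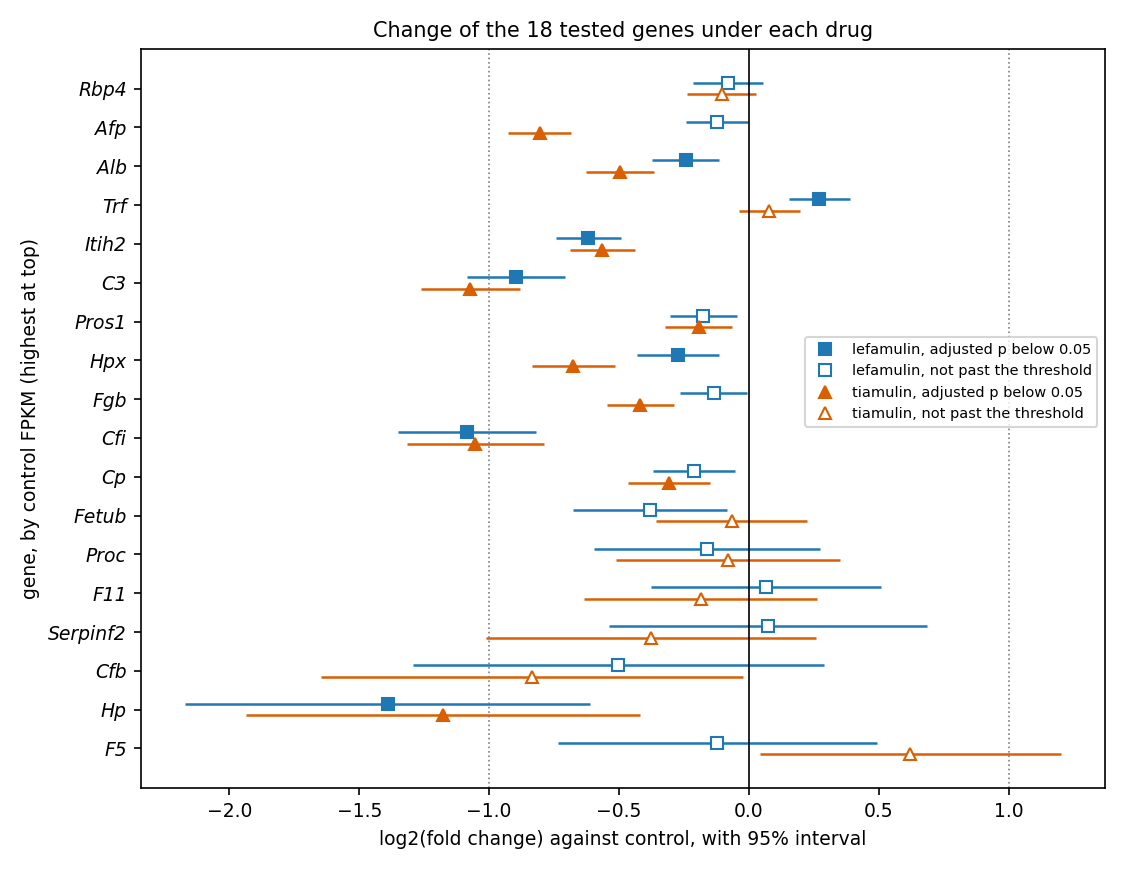
log2(fold change) of the 18 tested genes under lefamulin (squares) and tiamulin (triangles) against control, with 95% intervals and filled symbols where the adjusted p was below 0.05. Dotted lines mark a log2(fold change) of -1 and 1. The filled symbols lie left of 0 except for Trf under lefamulin, at 0.27.

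Among the genes above 1 FPKM, C3 and Cfi had the largest changes under both drugs. The levels that follow are counts relative to library size, scaled with TMM (CPM). C3 (ENSMUSG00000024164, chromosome 17) had 283, 259 and 296 CPM in controls, 161, 136 and 153 with lefamulin and 123, 152 and 123 with tiamulin. All treated libraries lay below all controls. Lefamulin reduced C3 to 53.7% of control (log2(fold change) -0.90 ± 0.09 SE, adjusted p = 1.42e-05) and tiamulin to 47.5% (-1.07 ± 0.09, adjusted p = 1.95e-06).

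Cfi (ENSMUSG00000058952, chromosome 3), which restrains complement where C3 drives it, fell too. It had 16.3, 16 and 17.8 CPM in controls, 8.31, 8.31 and 6.99 with lefamulin and 9.07, 7.19 and 7.89 with tiamulin, with no overlap. Its log2(fold change) was -1.09 ± 0.12 (adjusted p = 5.07e-05) under lefamulin and -1.05 ± 0.12 (adjusted p = 4.55e-05) under tiamulin. Cfb varied more between libraries, with 3.12, 2.62 and 2.12 CPM in controls, 1.09, 2.59 and 1.84 with lefamulin and 0.974, 2.50 and 0.942 with tiamulin. It was called under neither drug (-0.50, adjusted p = 0.418, and -0.84, adjusted p = 0.157). Without tiamulin 2, whose value of 2.50 CPM lay among the controls, Cfb was called lower under tiamulin (-1.44, adjusted p = 0.00444, against 0.00444 to 0.370 over the alternatives).

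Itih2 (ENSMUSG00000037254, chromosome 2) fell as well. It had 401, 405 and 436 CPM in controls, 281, 258 and 269 with lefamulin and 272, 296 and 271 with tiamulin. The 6 treated libraries were all below the controls and the drug groups overlapped. The changes were -0.62 ± 0.06 (adjusted p = 9.06e-06) and -0.57 ± 0.06 (adjusted p = 1.58e-05). Fetub, at 10.3, 8.26 and 11.3 CPM in controls, 7.80, 8.25 and 6.93 with lefamulin and 9.80, 9.56 and 9.24 with tiamulin, was not called (-0.38, adjusted p = 0.0854, and -0.07, adjusted p = 0.788). It was called lower under lefamulin without control 2 (adjusted p = 0.0365) and without tiamulin 2 (adjusted p = 0.0446), where the alternatives gave 0.0227 to 0.308.

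Of the 7 tested carriers, lefamulin lowered 3 and raised 1, and tiamulin lowered 5. Afp (ENSMUSG00000054932) had 933, 930 and 1023 CPM in controls, 933, 843 and 875 with lefamulin and 541, 566 and 545 with tiamulin. The lefamulin libraries overlapped the controls and the tiamulin libraries lay far below both. Tiamulin left 57.2% of the control level (-0.81 ± 0.06, adjusted p = 5.45e-07). The change under lefamulin was -0.12 ± 0.06 (adjusted p = 0.172), and it was called without tiamulin 2 (adjusted p = 0.0253, against 0.0207 to 0.522 over the alternatives).

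Alb (ENSMUSG00000029368), its neighbour on chromosome 5, was graded: 470, 459 and 532 CPM in controls, 430, 394 and 410 with lefamulin and 344, 350 and 341 with tiamulin. No 2 groups overlapped. The changes were -0.24 ± 0.06 (adjusted p = 0.0166) and -0.50 ± 0.06 (adjusted p = 7.56e-05). The call under lefamulin was lost without control 3 (adjusted p = 0.111), lefamulin 2 (0.0991) or lefamulin 3 (0.0681), and the alternatives gave adjusted p values of 0.000455 to 0.111.

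Hpx (ENSMUSG00000030895, chromosome 7) was graded in the same order. It had 54.2, 52.7 and 56.5 CPM in controls, 43.5, 46.9 and 44.7 with lefamulin and 35, 35.7 and 31.6 with tiamulin. The changes were -0.27 ± 0.07 (adjusted p = 0.0242) and -0.68 ± 0.07 (adjusted p = 2.79e-05). Under lefamulin the call was lost without control 1 (adjusted p = 0.0715), control 3 (0.115), lefamulin 1 (0.101), lefamulin 2 (0.0555) or lefamulin 3 (0.0841), within a range of 0.000690 to 0.115 over the alternatives.

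Hp (ENSMUSG00000031722, chromosome 8), the other scavenger of this kind, was rare: 22, 17 and 24 counts in controls, 8, 7 and 7 with lefamulin and 10, 8 and 8 with tiamulin. No treated library reached a control. The changes of -1.39 ± 0.36 (adjusted p = 0.0213) and -1.18 ± 0.35 (adjusted p = 0.0348) rest on these few counts. Hp passed the count filter through its controls, the group where it was high, so its lower calls do not stand apart from that filter. With no filter both calls were lost (adjusted p = 0.0598 and 0.123). Under lefamulin the call was lost without control 1 (adjusted p = 0.0749), control 3 (0.0903), lefamulin 1 (0.0545), lefamulin 2 (0.0834) or lefamulin 3 (0.0748), and the alternatives gave 0.0142 to 0.0903. Under tiamulin it was lost without any of the 3 controls (0.0983, 0.0526 and 0.125) or any of the 3 tiamulin libraries (0.0649, 0.0904 and 0.101), and the alternatives gave 0.0318 to 0.125.

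Trf (ENSMUSG00000032554, chromosome 9) was the exception in direction. It had 573, 523 and 570 CPM in controls, 677, 661 and 672 with lefamulin and 565, 620 and 573 with tiamulin. The lefamulin libraries were above all others, and the tiamulin libraries overlapped the controls. Trf rose under lefamulin to 121% of control (0.27 ± 0.05, adjusted p = 0.00465) and its change under tiamulin was 0.08 ± 0.05 (adjusted p = 0.370).

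Rbp4, the highest gene of the set by FPKM, had 587, 609 and 628 CPM in controls, 616, 555 and 555 with lefamulin and 593, 520 and 582 with tiamulin. Its groups overlapped. The changes of -0.08 (95% interval -0.21 to 0.05) and -0.11 (-0.24 to 0.03) were not called (adjusted p = 0.449 and 0.284).

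Cp (ENSMUSG00000003617, chromosome 3) had 66.5, 68.3 and 76.5 CPM in controls, 58.2, 60.2 and 64.1 with lefamulin and 59.8, 56.2 and 54.6 with tiamulin. All treated libraries were below the controls, and the change was called under tiamulin (-0.31 ± 0.07, adjusted p = 0.0101) and not under lefamulin (-0.21 ± 0.07, adjusted p = 0.0734). Without control 3 the tiamulin call was lost (adjusted p = 0.0727, against 0.000884 to 0.0727), and without tiamulin 2 lefamulin gave a call (adjusted p = 0.0145, against 0.0109 to 0.305). Cp overlaps Hps3 on the opposite strand, with 9461 counts for Cp and 5679 for Hps3 over the 9 libraries.

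**Figure D4:**
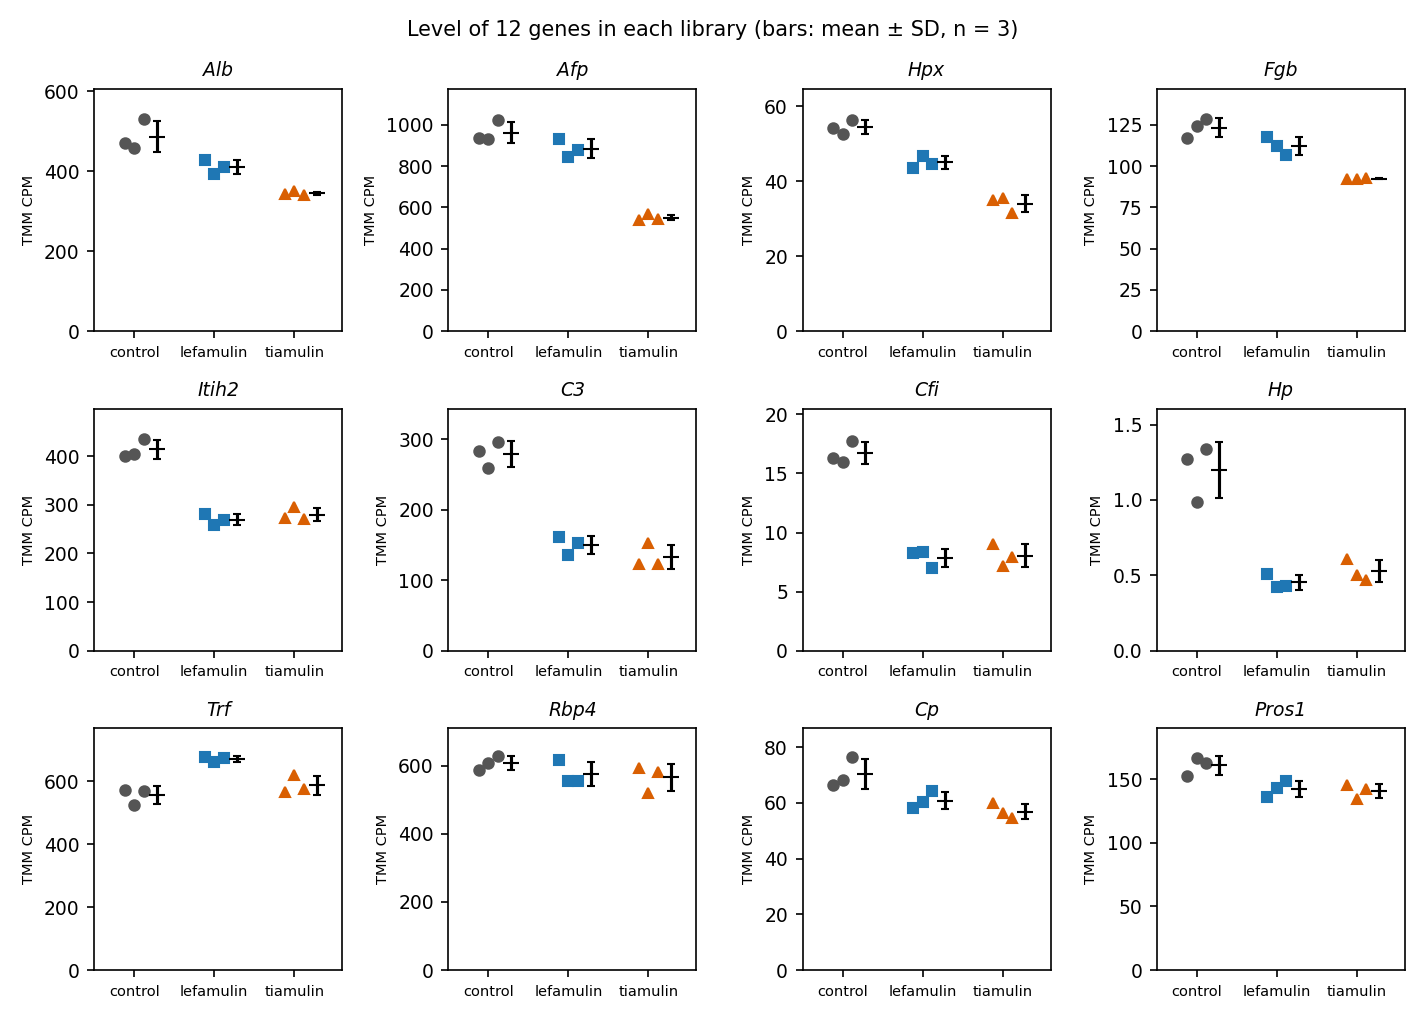
TMM-scaled CPM of 12 genes in each library (points), with the mean ± SD of 3 libraries beside each group. Afp, Fgb, Hpx and Alb are lowest under tiamulin, whereas in Itih2, Cfi and Hp the drug groups overlap, and Trf is highest under lefamulin.

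Of the clotting genes, the expressed fibrinogen chain fell under tiamulin. Fgb (ENSMUSG00000033831) had 117, 125 and 128 CPM in controls, 118, 112 and 107 with lefamulin and 92.0, 92.3 and 92.8 with tiamulin. The 3 tiamulin libraries were close to each other and below all others, and lefamulin libraries overlapped the controls. The change was -0.42 ± 0.06 (adjusted p = 0.000284) under tiamulin and -0.14 ± 0.06 (adjusted p = 0.156) under lefamulin, where it was called without tiamulin 2 (adjusted p = 0.0456, against 0.00553 to 0.414). Fga and Fgg stayed at or below 3 counts in all libraries, so no change of theirs was detectable at this depth.

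Pros1 (ENSMUSG00000022912, chromosome 16) moved little. It had 153, 167 and 163 CPM in controls, 136, 143 and 148 with lefamulin and 145, 134 and 143 with tiamulin, and treated libraries lay below the controls. The change was -0.19 ± 0.06 (adjusted p = 0.0415) under tiamulin and -0.18 ± 0.06 (adjusted p = 0.0703) under lefamulin. The tiamulin call was lost without control 2 (0.154), control 3 (0.139), lefamulin 1 (0.0536), lefamulin 2 (0.0697), lefamulin 3 (0.0573), tiamulin 1 (0.0558) or tiamulin 3 (0.0677), with adjusted p values of 0.00239 to 0.154 over the alternatives. Without tiamulin 2, lefamulin gave a call (adjusted p = 0.00639, against 0.000228 to 0.244).

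The other tested clotting, anticoagulant and fibrinolysis genes were low, and none was called. F11 had 3.70, 3.90 and 4.24 CPM in controls, 3.64, 4.94 and 3.80 with lefamulin and 3.16, 4.50 and 2.77 with tiamulin. Proc had 6.12, 4.66 and 5.70 CPM in controls, 5.5, 3.92 and 5.33 with lefamulin and 4.14, 6.62 and 4.83 with tiamulin. In both genes the groups overlapped. For F11 the 95% interval ran from -0.38 to 0.51 under lefamulin and from -0.64 to 0.26 under tiamulin, so changes of that size remain possible. F5 was highest under tiamulin, at 2.49, 3.75 and 2.06 CPM against 2.08, 1.34 and 1.95 in controls and 1.6, 1.63 and 1.72 with lefamulin (0.62 ± 0.27, adjusted p = 0.138). Serpinf2 had 1.79, 2.10 and 2.74 CPM in controls, 1.79, 1.81 and 3.37 with lefamulin and 1.46, 1.87 and 1.77 with tiamulin, with overlap.

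The drugs were next compared with each other at this equal dose and time, as 1 pair of compounds. Tiamulin gave lower levels than lefamulin in 4 of the 18 genes and higher levels in none (edgeR). At an unadjusted p below 0.05, Fetub and F5 were higher under tiamulin, and DESeq2 called none higher. The number of lower genes was 6 without tiamulin 2, 2 without lefamulin 1 or tiamulin 1, 1 without lefamulin 2, and 2 in a fit of these groups alone. Over all genes tested in these settings, 575 of 14886, 92 of 14852, 174 of 14854, 78 of 14835 and 110 of 14052 were lower. In the fit of the 9 libraries, 2.05% of all tested genes were called lower and 2.85% higher. DEGs made up 0.227%, with none of the 18 among them. The difference was -0.68 for Afp (95% interval -0.80 to -0.56, adjusted p = 1.41e-05), -0.40 for Hpx (-0.56 to -0.24, adjusted p = 0.00784), -0.28 for Fgb (-0.41 to -0.15, adjusted p = 0.0172) and -0.25 for Alb (-0.38 to -0.12, adjusted p = 0.0302). In these 4 genes all 3 tiamulin libraries were below all 3 lefamulin libraries.

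Only the Afp difference was called in each of the 18 alternatives. The Hpx difference was lost without lefamulin 2 (adjusted p = 0.0606, against 0.000362 to 0.0606). The Fgb difference was lost without lefamulin 1 (0.0934), lefamulin 2 (0.0851) or tiamulin 1 (0.0507), with a range of 0.00159 to 0.0934. The Alb difference was lost without lefamulin 1 (0.136), lefamulin 2 (0.0765), lefamulin 3 (0.118), tiamulin 1 (0.0726) or tiamulin 3 (0.0554), with a range of 0.00273 to 0.136.

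For the remaining 14 genes no difference was called. The intervals were narrow for the abundant ones: -0.16 to 0.11 for Rbp4, -0.15 to 0.11 for Pros1 and -0.07 to 0.18 for Itih2. C3 (-0.18, interval -0.37 to 0.01, adjusted p = 0.271) and Trf (-0.19, interval -0.31 to -0.08, adjusted p = 0.0578) were called lower under tiamulin once tiamulin 2 was left out (-0.29, adjusted p = 0.00787, and -0.23, adjusted p = 0.000470). C3 was also called with the GC and length offsets (adjusted p = 0.0113), and Trf with DESeq2 (adjusted p = 0.0248), with no filter (0.0420), with at least 10 counts in every library (0.0483) and with the GC and length offsets (0.000209). Over the alternatives the adjusted p ranged from 0.00787 to 0.583 for C3 and from 0.000209 to 0.179 for Trf. For Cfi the interval ran from -0.25 to 0.31 and for F5 from 0.15 to 1.33 (adjusted p = 0.138).

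C3, Fgb, Hp, Hpx, Cp and Cfb are known as acute-phase genes, and 20 genes of the signalling routes that reach such genes were examined beside them. All 20 were tested. Lefamulin lowered 10 (50%, against 6% of all tested genes) and tiamulin 9 (45%, against 7.34%), neither raised any (edgeR, with 0 and 1 at an unadjusted p below 0.05 and 0 and 1 by DESeq2), and the median log2(fold change) was -0.28 and -0.26. Lifr, the receptor of leukemia inhibitory factor, had 273, 287 and 278 CPM in controls, 164, 166 and 163 with lefamulin and 158, 131 and 148 with tiamulin (-0.76, adjusted p = 3.89e-06, and -0.94, adjusted p = 5.29e-07). The kinase gene Jak2 had 272, 281 and 280 CPM in controls, 186, 193 and 180 with lefamulin and 172, 150 and 175 with tiamulin (-0.58, adjusted p = 3.93e-05, and -0.75, adjusted p = 2.59e-06). In both genes every treated library was below every control.

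Il6ra, the receptor of interleukin-6, was lower under lefamulin (-0.47, adjusted p = 0.0111) and tiamulin (-0.67, adjusted p = 0.000839). Osmr, the oncostatin M receptor, was lower too (-0.68, adjusted p = 0.0136, and -0.62, adjusted p = 0.0173). Socs3, a feedback inhibitor of STAT3, fell under both (-0.72, adjusted p = 0.00328, and -0.45, adjusted p = 0.0328). The Il6ra call under lefamulin was lost without control 1 (adjusted p = 0.0615), control 2 (0.0516) or lefamulin 2 (0.0636). The Osmr call was lost under lefamulin without control 3 (0.0658), lefamulin 2 (0.0764) or lefamulin 3 (0.0724), and under tiamulin without control 2 (0.0614), control 3 (0.0762) or tiamulin 1 (0.0738). The Socs3 call under tiamulin held in 7 of 18 alternatives. It was lost without any library other than control 2 and tiamulin 2 (0.0504 to 0.120) and in 4 other settings (0.0598 to 0.0861). Over the alternatives between 6 and 13 of the 20 genes were called lower under lefamulin and between 6 and 11 under tiamulin, and without tiamulin 2 the numbers were 13 and 9. Of all 14886 genes tested without tiamulin 2, 1885 and 1685 were called lower.

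**Figure D5:**
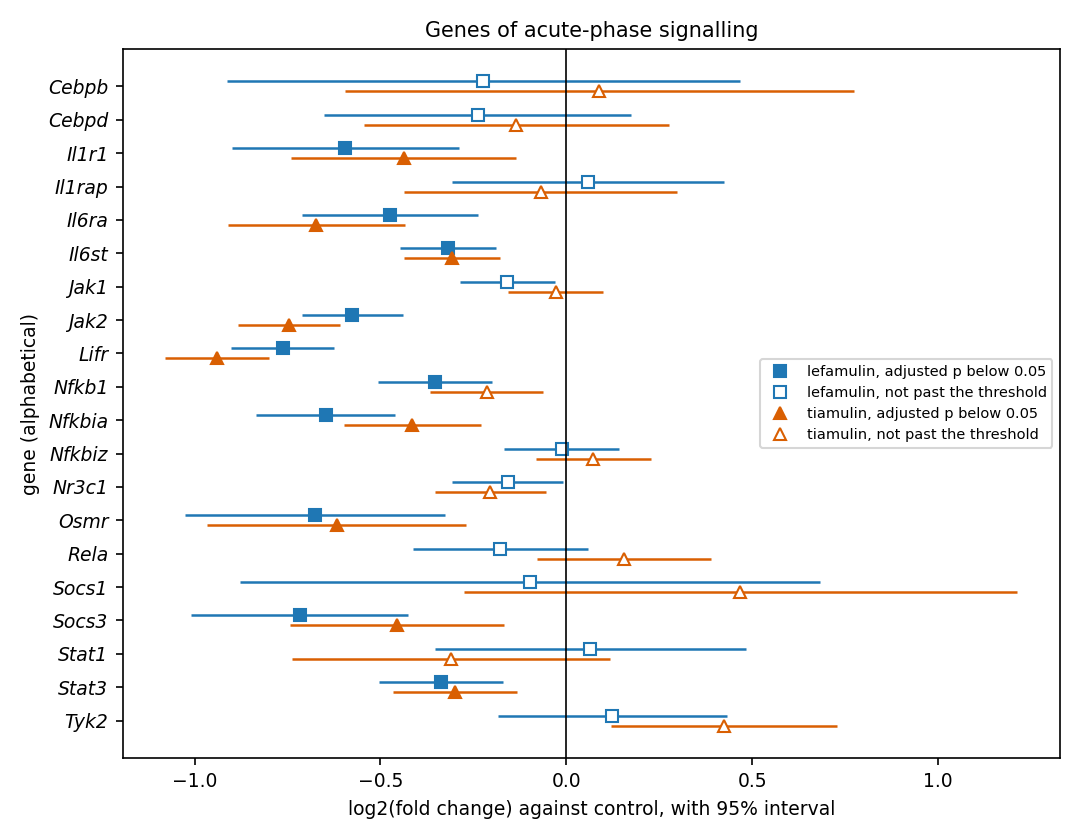
log2(fold change) of 20 signalling genes upstream of acute-phase genes under lefamulin (squares) and tiamulin (triangles) against control, with 95% intervals and filled symbols where the adjusted p was below 0.05. All filled symbols lie below 0, and Lifr and Jak2 lie furthest left under tiamulin.

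Of 22 liver transcription factors, 19 were tested. Lefamulin lowered 7 (36.8%, against 6% of all tested genes) and raised none (edgeR, with 1 at an unadjusted p below 0.05 and 1 by DESeq2), and tiamulin lowered 6, against 7.34% of all tested genes, and raised 1. Cebpa, a regulator of albumin and of other hepatocyte genes whose product binds the C/EBP motif, had 41.2, 28.8 and 36.4 CPM in controls, 20.4, 24 and 21.3 with lefamulin and 21.4, 21.1 and 18.6 with tiamulin (-0.70, adjusted p = 0.00166, and -0.80, adjusted p = 0.000435). Onecut1 (HNF6) was lower under both (-0.94, adjusted p = 8.23e-05, and -0.68, adjusted p = 0.000741), as were Nr5a2 (-0.57 and -0.77) and Tbx3 (-0.44 and -0.50). Onecut2 rose under tiamulin (0.57, adjusted p = 0.000558). Between 5 and 14 of the factors were called lower under lefamulin over the alternatives and between 4 and 11 under tiamulin, with 14 and 11 without tiamulin 2. In that last setting 1885 and 1685 of all 14886 tested genes were called lower.

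Summed levels of markers of other cells differed between the groups, and single markers moved both ways. The sums are in CPM without TMM scaling. That of 10 blood cell markers was 11.7 to 12.2 CPM in controls, 13.8 to 19.5 under lefamulin and 17 to 22 under tiamulin. Cd3e, Adgre1 and Hbb-bs were at 0 in all 9 libraries, and Cd68 made up most of the sum. Cd68 rose (0.65, adjusted p = 0.0183, and 1.02, adjusted p = 0.000586), a call lost under lefamulin without control 1 (0.0565), control 3 (0.0890), lefamulin 1 (0.0693) or lefamulin 2 (0.111). Ptprc, which encodes CD45, had 5, 0 and 3 counts in controls, 12, 15 and 15 with lefamulin and 9, 9 and 16 with tiamulin, and was called higher under both (2.45, adjusted p = 0.0168, held in 11 of 14 alternatives, and 2.12, adjusted p = 0.0336, held in 5 of 13). It passed the count filter only through treated libraries, where it was high, so these calls do not stand apart from that filter. The Ptprc call was lost under lefamulin without control 3, lefamulin 2 or lefamulin 3 (0.0593 to 0.0660), and under tiamulin without control 2, control 3, tiamulin 1, tiamulin 3 or any lefamulin library (0.0506 to 0.114). Csf1r fell under both drugs (-1.33, adjusted p = 0.0119, and -1.32, adjusted p = 0.00949), calls that were lost without control 3 (0.0700 and 0.0571). The 7 endothelial markers summed to 1.38 to 1.89 CPM in controls, 3.52 to 4.37 under lefamulin and 3.10 to 4.59 under tiamulin, with Lyve1 at 0. Pecam1, the 1 endothelial marker with enough counts for the test, rose from 15, 23 and 25 counts in controls to 56, 48 and 39 with lefamulin and 37, 67 and 52 with tiamulin (1.29, adjusted p = 0.0101, and 1.39, adjusted p = 0.00461). The lefamulin call was lost without control 1 (0.0514) or lefamulin 1 (0.0540). The 8 markers of stellate cells and fibroblasts summed to 1475 to 1557 CPM in controls, 1137 to 1190 under lefamulin and 1029 to 1118 under tiamulin. Nearly all of that was Dcn, at 25618 to 28005 counts in controls, while each of the other 7 had at most 27 counts in any library. Dcn fell under lefamulin (-0.42, adjusted p = 8.99e-05) and tiamulin (-0.49, adjusted p = 1.58e-05), calls that held in 18 of 18 alternatives. The 6 bile duct markers summed to 627 to 653, 563 to 586 and 524 to 554 CPM, most of it Spp1, which fell (-0.31, adjusted p = 0.000587, and -0.39, adjusted p = 6.50e-05). Krt7 rose under both drugs (0.52, adjusted p = 0.0142, and 0.75, adjusted p = 0.000877), under lefamulin not without control 1, control 2, lefamulin 2 or lefamulin 3 (adjusted p up to 0.0693). Sox9 (0.23 and 0.10) and Epcam (-0.04 and -0.15) were not called. Of the 16 hepatocyte markers, which include Alb and Afp, 9 were tested, with 2 lower under lefamulin (Alb and Hnf4a, the latter in 9 of 18 alternatives and not without any 1 control or lefamulin library, adjusted p 0.0852 to 0.134) and 3 lower (Afp, Alb and Apob) and 1 higher (Krt18) under tiamulin. Krt18, a keratin of simple epithelia, was called higher under tiamulin than in controls (0.37, adjusted p = 0.00389) and than under lefamulin (0.47, adjusted p = 0.00381). Krt8, its partner, was called higher under tiamulin than under lefamulin (0.31, adjusted p = 0.0309), with 0.23 against control (adjusted p = 0.0512), and was not examined in the alternatives. Apob, the protein of very-low-density lipoprotein, fell under tiamulin (-0.39, adjusted p = 0.00256). The part of these markers in the results above was not tested.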

How the data were processed

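RNA-Seq was analysed for 9 libraries of Hepa1-6 cells, grouped by the sample labels. The authors deposited raw read counts per gene, and FPKM values that equalled the counts divided by gene length and by a library total of 0.993 to 1.01 times the count sum. Per the labels, reads were processed with CASAVA 1.8, fastp, HISAT2 2.0.5, featureCounts 1.5.0-p3 and DESeq2 1.20.0 on mm10. Of 52036 nuclear genes, 1435 (2.76%) had their GRCm38 start and end, so deposited positions belong to another build that is not named, and only distances within a locus are taken from them. Promoters came from the RefSeq table.

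Levels of different genes were compared by FPKM, and groups by TMM-scaled counts. Tests used edgeR 4.0.16 in R 4.3.3 (filterByExpr, robust quasi-likelihood fit, group as the only term), with SE from the F statistic. The procedure was tested on simulated data. Alternatives were DESeq2 1.42.0, its size factors in edgeR, no filter, at least 10 counts in every library, a fit of the 2 groups alone, a block for the replicate number, limma 3.58.1 on log2(FPKM + 1) and log2(FPKM + 0.1), offsets for GC content and gene length (GC content known for 14242 of 14510 tested genes), and leaving out each library. The genes and lists were chosen with earlier results of these data known. Named were genes of the set that were called or had at least 1 FPKM in controls, and from each other list at most the 5 called genes with the largest change under either drug. Hnf4a, Krt8, Krt18 and marker genes named for their level were chosen after their values had been seen. The depth of 15568887 to 18008105 counts per library leaves genes with few counts with counting error on top of the spread between libraries, and 3 counts were taken as the limit that a count of 0 allows.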

Additional observations from a re-analysis of the deposited data

Results flagged for a closer look

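Afp, Hpx, Fgb and Alb are given here because the test of the 2 drugs against each other called a difference. On the log2 scale tiamulin minus lefamulin was -0.68 for Afp, -0.40 for Hpx, -0.28 for Fgb and -0.25 for Alb. In mean CPM, Afp stood at 884 ± 45.2 (SD, n = 3) under lefamulin and 550 ± 13.8 under tiamulin, and Hpx at 45 ± 1.73 and 34.1 ± 2.21. Fgb stood at 112 ± 5.41 and 92.4 ± 0.385, and Alb at 411 ± 18 and 345 ± 4.23. Each of these genes also differed from control under tiamulin.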

How the results depend on the processing

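Calls that held in all alternatives were those of C3, Cfi, Itih2 and Trf under lefamulin, of Afp, Alb, C3, Cfi, Fgb, Hpx and Itih2 under tiamulin, and of Afp between the drugs. The number of genes lowered by lefamulin (6) rose to 11 with the GC and length offsets, and leaving out single libraries gave 3 to 11 (3 without control 3, lefamulin 2 or lefamulin 3, and 11 without tiamulin 2). Over all tested genes, 1925 of 14242 were lower under lefamulin with the offsets and 1885 of 14886 without tiamulin 2. Without control 3, lefamulin 2 or lefamulin 3 the number was 425 to 492. The number lowered by tiamulin (10) stayed between 7 and 10. The number lower under tiamulin than under lefamulin (4) was 2 in the 2 groups alone and with the replicate number as a block, 3 in both limma fits, 5 with DESeq2, with no filter and with at least 10 counts in every library, and 6 with the GC and length offsets, and leaving out single libraries gave 1 to 6 (1 without lefamulin 2, 2 without lefamulin 1 or tiamulin 1, and 6 without tiamulin 2). Over all tested genes, 110 of 14052 were lower between the drugs in the 2 groups alone, 98 of 14510 with the block and 201 of 12318 in both limma fits. The number was 444 of 11712 with DESeq2, 485 of 30014 with no filter, 318 of 12688 with at least 10 counts and 767 of 14242 with the offsets. It was 78 of 14835 without lefamulin 2, 92 of 14852 without lefamulin 1, 174 of 14854 without tiamulin 1 and 575 of 14886 without tiamulin 2. The causes were not tested.

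Same-numbered libraries did not deviate together (r between -0.465 and 0.0536), so the numbers were not taken as a pairing. With the block, 5 genes were lower under lefamulin and 8 under tiamulin.

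Genes that were not called changed sign in some alternatives. The GC and length offsets gave 0.028 for Rbp4 and 0.052 for Pros1 between the drugs. Leaving out a library gave, under lefamulin, -0.0853 to 0.15 for F11 and -0.30 to 0.26 for Serpinf2. Under tiamulin it gave -0.18 to 0.0349 for Fetub and -0.29 to 0.0573 for Proc. Between the drugs it gave -0.0603 to 0.0315 for Rbp4, -0.0509 to 0.0156 for Pros1, -0.0600 to 0.11 for Cfi and -0.13 to 0.22 for Proc.

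Besides single libraries, some settings ended a call. Under lefamulin the Hpx call was lost with the block (adjusted p = 0.0620) and the Hp call with DESeq2 (0.0633) and with no filter (0.0598). Under tiamulin the Hp call was lost with no filter (0.123) and with the block (0.0615), and the Pros1 call with no filter (0.0746), in the 2 groups alone (0.0897) and with the block (0.0884). Between the drugs the Alb call was lost in the 2 groups alone (0.0534), with the block (0.0824) and in both limma fits (0.0594 and 0.0588), and the Fgb call in the 2 groups alone (0.0535) and with the block (0.0672). Hp and the other genes with few counts are limited by depth.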

Other observations

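Other genes of the clotting system were expressed beside the set. Of 33 listed, 19 were tested, and 4 rose and 4 fell under lefamulin, against 3 and 3 under tiamulin. Over the alternatives 2 to 5 were higher and 2 to 6 lower under lefamulin, and 2 to 5 higher and 3 to 4 lower under tiamulin. Over all tested genes the shares were 7.09% higher and 6% lower under lefamulin and 9.08% higher and 7.34% lower under tiamulin, against which the counts of all lists here are to be read. Serpina10, the inhibitor of factor Xa that works with protein Z, fell the most: it had 121, 142 and 145 counts in controls, 30, 25 and 43 with lefamulin and 23, 44 and 36 with tiamulin (log2(fold change) -1.94, adjusted p = 8.96e-05, and -1.90, adjusted p = 7.82e-05). Procr, the protein C receptor, and Plaur, the urokinase receptor, rose under both drugs (0.42 and 0.50 under lefamulin, 0.52 and 0.65 under tiamulin). S100a10, which binds plasminogen at the cell surface with annexin A2, fell under both (-0.33, adjusted p = 0.00914, lost without lefamulin 3 at 0.0567, and -0.59, adjusted p = 0.0001). Vwf, von Willebrand factor, had 26, 15 and 20 counts in controls, 38, 54 and 76 with lefamulin and 37, 37 and 28 with tiamulin. It was called higher under lefamulin (1.56, adjusted p = 0.00322) and not under tiamulin (0.82, adjusted p = 0.0899), where all libraries also lay above the controls.

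Of 38 further complement genes 18 were tested, with 1 higher and 4 lower under lefamulin and 3 higher and 1 lower under tiamulin. Over the alternatives 0 to 3 were higher and 1 to 5 lower under lefamulin, and 0 to 3 higher and 1 to 3 lower under tiamulin. DESeq2 called 0 higher and 2 lower under lefamulin and 3 higher and 2 lower under tiamulin. C2, which forms the classical C3 convertase, fell under lefamulin (-0.64, adjusted p = 0.00736) and so did C4bp (-0.73, adjusted p = 0.0422), the latter in 7 of 16 alternatives only. Under tiamulin they were not called (-0.16, adjusted p = 0.452, and -0.04, adjusted p = 0.933). C1rl, a relative of C1r, was called lower under lefamulin (-0.42, adjusted p = 0.0468, held in 7 of 18) and had -0.13 under tiamulin (adjusted p = 0.530). Cd59a, a membrane inhibitor of complement lysis, was called higher under lefamulin (0.33, adjusted p = 0.0479, held in 6 of 18 alternatives) and tiamulin (0.41, adjusted p = 0.0118, lost without control 3, adjusted p = 0.0695). Masp1, a protease of the lectin route, was called higher under tiamulin (0.35, adjusted p = 0.0330, held in 9 of 18). Hc, which encodes complement C5, had 102, 120 and 137 counts in controls, 76, 81 and 70 with lefamulin and 101, 67 and 77 with tiamulin and was not called (-0.55, adjusted p = 0.0536, and -0.47, adjusted p = 0.0854).

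Of 54 further secreted liver proteins 25 were tested, with 4 higher and 7 lower under lefamulin and 2 higher and 5 lower under tiamulin. The alternatives gave 1 to 4 higher and 3 to 9 lower under lefamulin, and 2 to 5 higher and 3 to 6 lower under tiamulin. Fgl1, a fibrinogen-like protein, fell (-0.72 and -1.13), as did Bche, butyrylcholinesterase (-0.59 and -0.81). The Fgl1 call under lefamulin was lost without control 2, control 3, lefamulin 2 or lefamulin 3 and in 1 limma fit (adjusted p up to 0.0836). Mst1 rose (0.76 and 1.11), under lefamulin not without control 1, lefamulin 1 or lefamulin 2 (adjusted p up to 0.0900), and so did Gdf15, a stress-induced hormone (0.95 and 0.78). Orm2, a close copy of Orm1, was counted 6, 4 and 7 times in controls, 13, 20 and 15 times with lefamulin and 9, 9 and 17 times with tiamulin (1.58, adjusted p = 0.0281, a call lost in 8 of 17 alternatives and without any 1 control or lefamulin library, and 1.11, adjusted p = 0.118). Orm2 passed the count filter only through treated libraries, where it was high, so its call does not stand apart from that filter. Reads that fit both Orm1 and Orm2 may not have been counted. The 30 genes of the secretory route were all tested. Under lefamulin 2 were higher (Sec24a, 0.27, held in 13 of 18 alternatives, and Sec11c, 0.29, in 10 of 18), which is 6.67% and near the 7.09% of all tested genes. None was lower under lefamulin (edgeR, with 3 lower at an unadjusted p below 0.05 and 1 by DESeq2). Under tiamulin 1 was higher (Sec24a, 0.26, lost without tiamulin 3, adjusted p = 0.0543) and 4 were lower. Among the latter were Sec61b (-0.44, adjusted p = 0.00946, lost without control 2 and with the GC and length offsets) and Spcs2 (-0.36, adjusted p = 0.00715). The alternatives gave 0 to 4 higher and 0 to 4 lower under lefamulin, and 0 to 3 higher and 3 to 8 lower under tiamulin.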
